A study of Drosophila melanogaster with 2 samples.

Results

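The peaks described here are sites where the protein rib, tagged with eGFP, was immunoprecipitated from Drosophila embryos and that passed the authors' threshold in replicate 1 but not in replicate 2. There were 1507 of them among the 3082 thresholded peaks of replicate 1. They were chosen by the measured values: each is a peak of replicate 1's own thresholded list that shares no base with any peak of replicate 2's thresholded list. The other 1575 peaks of replicate 1 overlapped at least 1 base of a replicate 2 peak and are called shared peaks below. Of the 2181 thresholded peaks of replicate 2, 644 had no overlap with replicate 1 and serve as the mirror set. The study holds 1 group of 2 biological replicates and no second condition. Both are chromatin from whole embryos collected over 0 to 24 h after laying, of a strain named rib-GFP that carries a transgenic insertion aimed at rib. The labels' description names an antibody to GFP, while their antibody field names rib. Chromatin was sheared by sonication to 200 to 800 bp. Whole embryos of all these ages were pooled, so a peak cannot be placed in a tissue or a stage. A control experiment named in the labels was not used here, so no background is set beside the signal.

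The gene rib (ribbon) encodes a transcription factor with a BTB domain, known for shaping tubes in the embryo, among them the tracheal branches and the salivary gland. Chromatin immunoprecipitation with sequencing recovers the DNA that lies near a tagged protein and reports stretches with many reads as peaks, whose summit is the position of highest coverage. The irreproducible discovery rate (IDR) compares how regions rank in a pair of read sets, and a low value means that the rank was repeated. In these files the authors kept peaks with an IDR of at most 0.01, which the score column gives as 830 or more on a scale that ends at 1000. GAGA factor, the product of Trl, is a well-studied protein of fly promoters that binds repeats of GAGAG.

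The sequences shown reach 50 bases to either side of the summits of members of the set, on the plus strand of dm6 (Release 6), read from the RefSeq assembly. They are shown because the set as a whole differed from the shared peaks in base composition and in the simple repeats described below. Capitals mark 3 elements on either strand. These are the GAGA factor letters GAGAG (reverse complement CTCTC), the CA repeat CACACAC (reverse complement GTGTGTG) and the TATA box letters TATAAA (reverse complement TTTATA). The gene given is the gene of the nearest start, and windows that reach into an untranslated region were not chosen.
kis (chr2L:246917-247017): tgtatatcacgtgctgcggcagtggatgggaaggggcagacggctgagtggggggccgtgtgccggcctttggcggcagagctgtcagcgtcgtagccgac
mamo (chrX:13890515-13890615): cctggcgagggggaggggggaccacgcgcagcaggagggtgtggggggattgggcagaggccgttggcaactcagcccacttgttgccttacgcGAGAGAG
pnt (chr3R:23295428-23295528): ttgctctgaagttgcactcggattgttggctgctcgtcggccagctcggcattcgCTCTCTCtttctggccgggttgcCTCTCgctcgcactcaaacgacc
oc (chrX:8650912-8651012): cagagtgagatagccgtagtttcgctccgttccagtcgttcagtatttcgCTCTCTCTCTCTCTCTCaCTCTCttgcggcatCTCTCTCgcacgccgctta
Act5C (chrX:5901712-5901812): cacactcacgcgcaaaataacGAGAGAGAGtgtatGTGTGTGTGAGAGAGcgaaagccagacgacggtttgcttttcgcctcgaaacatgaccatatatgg
spi (chr2L:19575233-19575333): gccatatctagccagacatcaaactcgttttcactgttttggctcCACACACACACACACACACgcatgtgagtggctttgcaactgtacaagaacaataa
RasGAP1 (chr3L:9856445-9856545): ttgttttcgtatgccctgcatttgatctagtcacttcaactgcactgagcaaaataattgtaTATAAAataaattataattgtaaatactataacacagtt
The kis and mamo windows, in introns, were 66.3% and 68.3% G+C. The windows at pnt and oc held 3 and 10 overlapping matches to GAGAG on either strand, and that at Act5C held 5 together with 2 matches to CACACAC. The window in spi carried 7 overlapping matches to CACACAC. The RasGAP1 window, at 27.7% G+C and with a TATAAA match, is an example from the other end of the range, and its site lay just below the threshold in replicate 2. These windows are examples and not a random draw of the set. Within 50 bp of the summit, GAGAG stood at 25.6% of all members, CACACAC at 11.5% and TATAAA at 6.0%, on either strand.

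In replicate 1 these peaks were mostly of middling strength. Their signal, the authors' measure of peak height, had quartiles of 51.2, 59.6 and 70.6 and ran between 2.2 and 240.1, while shared peaks of replicate 1 had quartiles of 64.5, 84.0 and 116 and reached 1115. Only 1 member was among the 100 strongest peaks of replicate 1, 29 were among the 500 strongest and 786 ranked below 2000. The score was at its cap in 53.6% of members and in 87.7% of shared peaks. Because signal and score decide what passes, these values describe the choice and are not a finding. The pair of signals that the IDR compared within replicate 1 differed by a median of 0.30 on the log2 scale for members and of 0.32 for shared peaks. Of the members, 124 had a signal under 30, and 118 of those overlapped a stronger peak of the same list. After overlapping members were joined, 1382 distinct stretches remained.

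Nearly every one of these sites also had a region in replicate 2. Members were chosen for not passing there, so their lower signal, rank and ratio in replicate 2 describe the choice and are not a finding. Of the 1507 members, 1471 (97.6%) overlapped a region of the 95994 in replicate 2's ranked list, which holds regions above and below the threshold. All 1575 shared peaks (100%) did so too. In the opposite direction, 620 of 644 replicate 2 only peaks (96.3%) overlapped a region of replicate 1's ranked list. How often a stretch placed at random would meet a region of so long a list was not measured. The strongest region that a member overlapped had a median signal of 30.2 (quartiles 23.4 and 37.6) and a median score of 325. By signal that region ranked at a median of 5520, or 5.75% of the way down replicate 2's list. Shared peaks met regions with a median signal of 67.9 at a median rank of 830. Among peaks with a signal of 30 or more in replicate 1, the log2 ratio of replicate 2 over replicate 1 was -1.06 ± 0.53 for members (median and SD, n = 1350 peaks) and -0.32 ± 0.51 for shared peaks (n = 1474). The scaling of the signal between the replicates is not stated, so the ratio is read only between sets of peaks. For the replicate 2 only peaks the opposite ratio, replicate 1 over replicate 2, had a median of -0.39 over 575 peaks. The signal was higher in replicate 2 at 112 of the 1471 members with a region there (7.61%) and at 480 of 1575 shared peaks (30.5%). These counts also hold peaks with a signal under 30, most of which overlapped a stronger peak of the same list. Across the members, log2 signal in the 2 replicates had a Pearson's r of 0.30 and a Spearman's rho of 0.30 over 1350 peaks from the same 2 libraries, within a range that the thresholds of both replicates limit.

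**Figure D1:**
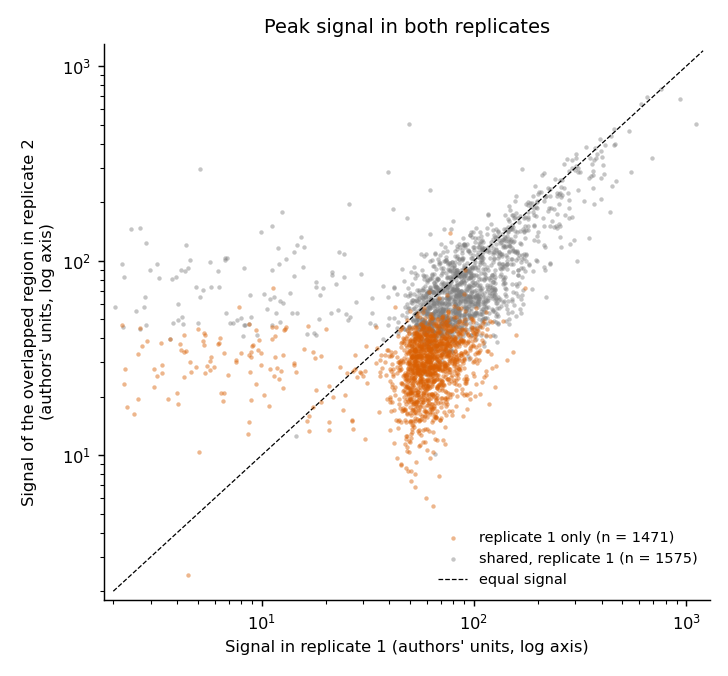
Signal in replicate 1 (horizontal, log axis) and of the strongest overlapped region in replicate 2 (vertical, log axis), 1 point per peak of replicate 1: 1471 passing in replicate 1 only (orange) and 1575 shared (grey). Most orange points lie below the dashed line of equal signal, and the points at the left with a signal under 30 are mostly peaks nested in a stronger peak.

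Some members lay just below the threshold of replicate 2, but most were well under it. The score there had a median of 325 and a 95th percentile of 779 in members with a region. Shared peaks had a 5th percentile of 886 and a median of 1000. Of the 1469 members whose region in replicate 2 lay below the score of 830, 181 had a score of 700 or more, 401 of 540 or more and 1068 under 540. Closest from below was an intergenic site 1210 bp upstream of RasGAP1, a Ras GTPase-activating protein, with a signal of 58.7 in replicate 1 and 44.2 in replicate 2 and a score there of 829. An intronic site of pnt at chr3R:23335670-23336019 had signals of 73.9 and 44.1 and a score of 828. Just above the line, a shared peak at 18w, which encodes a Toll-family receptor, had signals of 76.6 and 41.2 and a score of 831, and a shared peak at Eip75B had 84.8 and 50.1 and a score of 832. These few sites were picked for scores closest to the line, so their like signals do not stand for the sets. Over the sets, the median signal in replicate 2 was 30.2 for members and 67.9 for shared peaks. For 2 members the region in replicate 2 was past the score but is not in its thresholded list: a site in wdb (75.4 and 54.9, score 1000) and one in Cdc7 (74.6 and 36.8, score 830). In all, 165 regions of replicate 1 and 99 of replicate 2 were past the score in the ranked list and not in the thresholded one.

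At the far end, 36 members met no region at all in replicate 2's ranked list, and 11 of these overlapped a peak of the list the authors made for the whole series. The strongest member of the set was among them. It lies at chr2R:18806337-18806630, 2747 bp upstream of the nearest coding start, that of MFS14, had a signal of 240.1 in replicate 1 and stood 133 bp from a replicate 2 peak. A peak nested in it (signal 89.9) and a site 11 bp upstream of a start of tkv, the type I receptor of the Dpp pathway (signal 76.6), also had no region there. The lowest signal listed in replicate 2 was 2.42, at a nested member in CG42514 whose signal in replicate 1 was 4.51. Next came 5.49 in replicate 2 at Nadk2, with 64.4 in replicate 1, and 6.02 at COX7A, with 59.4 in replicate 1. At the other extreme, the site at CG10527 had 139 in replicate 2 and 77.5 in replicate 1, with a score of 805, and the site at CG32982 had 89.3 and 90.3, with a score of 825. A high signal in replicate 2 did not by itself put a region past the IDR threshold.

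The 12 strongest members were picked by their signal in replicate 1, so a lower value in replicate 2 at each of them describes that choice. Signals in pairs are those of replicate 1 and then of replicate 2. After the site near MFS14 came an intronic site 154 bp upstream of a start of Pino, at chr2L:1119130-1119308. It had a signal of 174 in replicate 1 and 72.3 in replicate 2 and a score of 55 there. The 5′ UTR site of CG15611 at chr2R:17108797-17108917 had 158 and 41.7. In kis, which encodes a CHD-family chromatin remodeller, an intronic site at chr2L:246792-247141 had 153 and 34.0. An intronic site of 14-3-3epsilon, an adaptor of phosphorylated proteins, had 143 and 30.9 at chr3R:18244703-18244890. Next were intronic sites nearest to starts of Tlk, a chromatin-associated kinase (137 and 49.2), CG11658 (127 and 28.7) and fru, a BTB transcription factor of the nervous system (126 and 22.5). The list closed with CG12402 (122 and 48.2), CG5455 (121 and 28.0), an intron of mamo, a BTB factor first known from the germ line (121 and 33.1), and Tctp (119 and 40.8). All 12 overlapped a peak of the whole-series list, and 3 of them, those at CG15611, CG5455 and Tctp, had a summit within 51 bp of a coding start. The summits at Pino, CG11658 and CG12402 lay 154, 360 and 306 bp upstream of one, so these too were within 500 bp of a start. Signal in replicate 2 was between 22.5 and 72.3 at the 11 with a region.

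**Figure D2:**
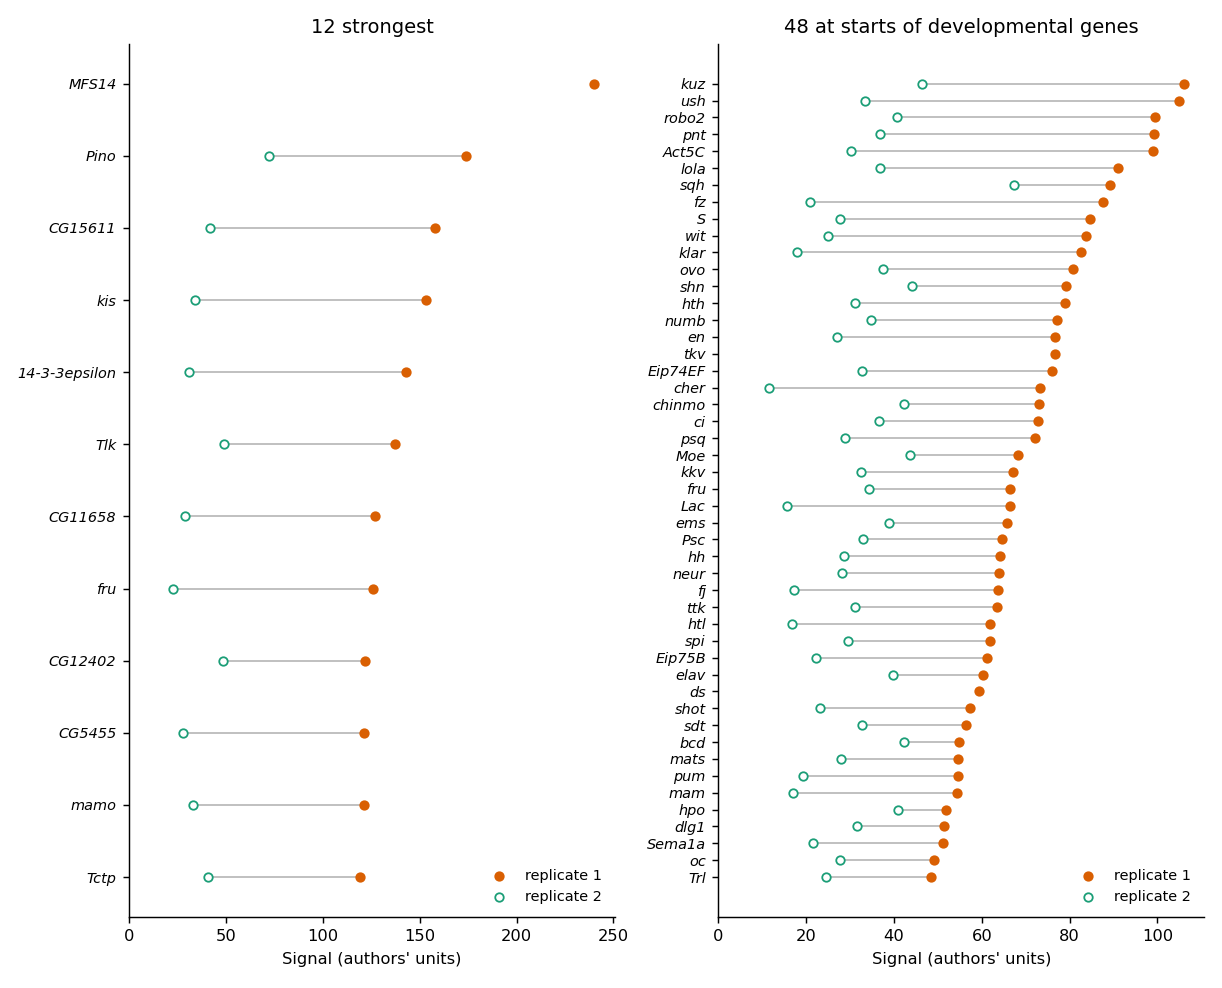
Signal in replicate 1 (filled) and of the overlapped region in replicate 2 (open) for the 12 strongest members (left) and for 48 members at the starts of developmental genes (right), on linear axes in the authors' units. A missing open point (MFS14, tkv, ds) means that no region of replicate 2's ranked list overlapped the member.

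Over all peaks together, promoters held a smaller share of the members than of shared peaks, but not at each level of signal. Of 1507 summits, 775 (51.4%, exact Clopper-Pearson 95% interval 48.9 to 54.0) lay within 500 bp of the start (TSS) of a protein-coding transcript, against 52.6% (48.7 to 56.6) of replicate 2 only peaks and 56.9% (54.4 to 59.4) of shared peaks, with the intervals of members and shared peaks apart. The intervals cover the counting of peaks only, since depth is unknown and neighbouring peaks are not independent. Among peaks whose score was at its cap, the promoter share was 56.7% (53.2 to 60.1) for members and 58.3% (55.6 to 60.9) for shared peaks, with overlapping intervals. Summits over 2000 bp from any start made up 26.9% of members, 24.4% of replicate 2 only peaks and 22.7% of shared peaks.

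The sets also differed in the side of the start. At promoters, 408 of 775 members (52.6%, 49.1 to 56.2) had the summit at or downstream of the nearest start, against 31.6% (26.7 to 36.8) of 339 replicate 2 only peaks and 31.2% (28.2 to 34.4) of 896 shared peaks. The median summit lay 6 bp downstream of the start in members, 65 bp upstream in replicate 2 only peaks and 62 bp upstream in shared peaks. The stretch of 0 to 99 bp downstream held 34.5% of member summits, 19.2% of replicate 2 only summits and 20.9% of shared summits. The stretch of 101 to 200 bp upstream held 11.2% of member, 21.2% of replicate 2 only and 24.9% of shared summits. Summits in a 5′ UTR were likewise commoner among members, at 26.5% (24.3 to 28.8), against 16.6% (13.8 to 19.7) of replicate 2 only and 18.3% (16.5 to 20.4) of shared peaks, and intergenic summits were rarer, at 22.5% of members, against 30.9% of replicate 2 only and 32.1% of shared peaks. Introns held 44.4% of members, 45.5% of replicate 2 only and 44.5% of shared summits.

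**Figure D3:**
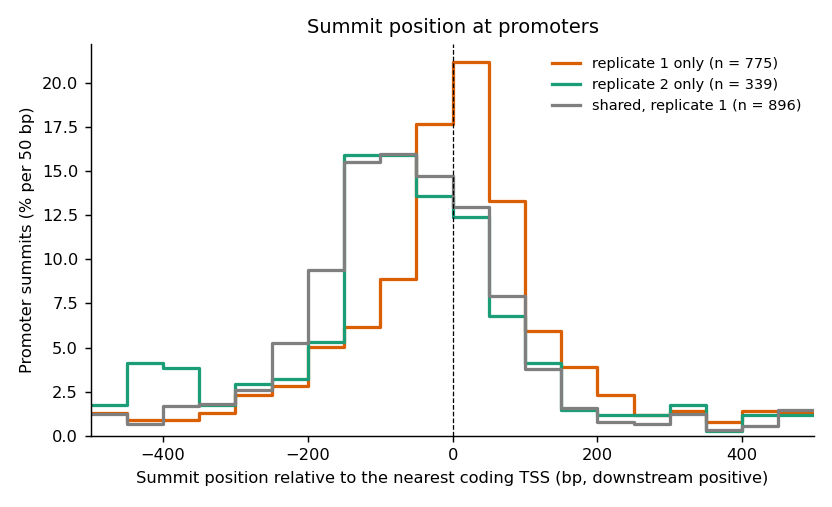
Summit position relative to the nearest coding start for promoter summits (within 500 bp), as percent per 50 bp, for 775 members, 339 replicate 2 only peaks and 896 shared peaks of replicate 1. The member curve peaks just downstream of the start, and the other curves peak between 50 and 150 bp upstream.

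The downstream share was higher in members at each level of signal. In quartiles of replicate 1 signal, weakest to strongest, the share at or downstream of the start was 53.3%, 50%, 54.6% and 55.7% in members, and 40.4%, 38.5%, 31.9% and 25.8% in shared peaks. The intervals were apart in the upper 2 quartiles and overlapped in the lower 2. The median position by replicate 2's own summits was close to that by replicate 1's, while single sites varied more. Over 703 promoter members with a region there and a signal of 30 or more, the median offset was 5 bp downstream by replicate 1's summit and 2 bp upstream by replicate 2's, and 51.8% and 49.5% of the summits were at or downstream of the start. For 838 shared promoter peaks the medians were 64.5 bp and 78 bp upstream. The summits of the replicates fell within 50 bp of each other at 57.9% of these members and at 79.2% of the shared peaks.

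The set also differed in base composition, which the choice of members did not use directly. The bases within 100 bp of a member's summit averaged 47.0 ± 7.4% G+C (SD over 1507 windows), against 39.7 ± 8.6% at replicate 2 only peaks (644 windows) and 41.6 ± 8.8% at shared peaks (1575 windows). Windows of the same width 500 bp to either side averaged 40.1% for members, 42.9% for replicate 2 only and 42.0% for shared peaks, so the members were richer in G+C than their own surroundings and the other sets were not. Windows around the 19275 distinct coding starts averaged 42.3 ± 7.8%. The members stood higher both at promoters, with 47.2% against 39.9% for replicate 2 only and 41.2% for shared peaks, and away from them, with 46.9% against 39.5% for replicate 2 only and 42.1% for shared peaks. By quartile of replicate 1 signal, weakest to strongest, members averaged 46.3%, 47.0%, 47.7% and 49.2%, and shared peaks 42.5%, 40.9%, 42.0% and 41.3%.

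Composition and the ratio of signal moved together over the 2824 of 3082 peaks of replicate 1 that had a signal of 30 or more and a region in replicate 2, 1350 of them members. In 5 bands of about equal size from low to high G+C, the share passing in replicate 1 only was 18.6% (15.5 to 22), 38.9% (34.9 to 42.9), 58.4% (54.2 to 62.4), 58.8% (54.7 to 62.8) and 66.3% (62.1 to 70.4). The median log2 ratio of replicate 2 over replicate 1 signal was -0.20, -0.50, -0.83, -0.91 and -0.97 in the same order. Across 2824 peaks the ratio and G+C had a Pearson's r of -0.43 and a Spearman's rho of -0.46, and across the 1350 members alone -0.18 and -0.17. These points share the same 2 libraries, whose depth and base composition are not in the lists. A difference between the libraries and a difference between the embryos cannot be told apart with 1 library per replicate.

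**Figure D4:**
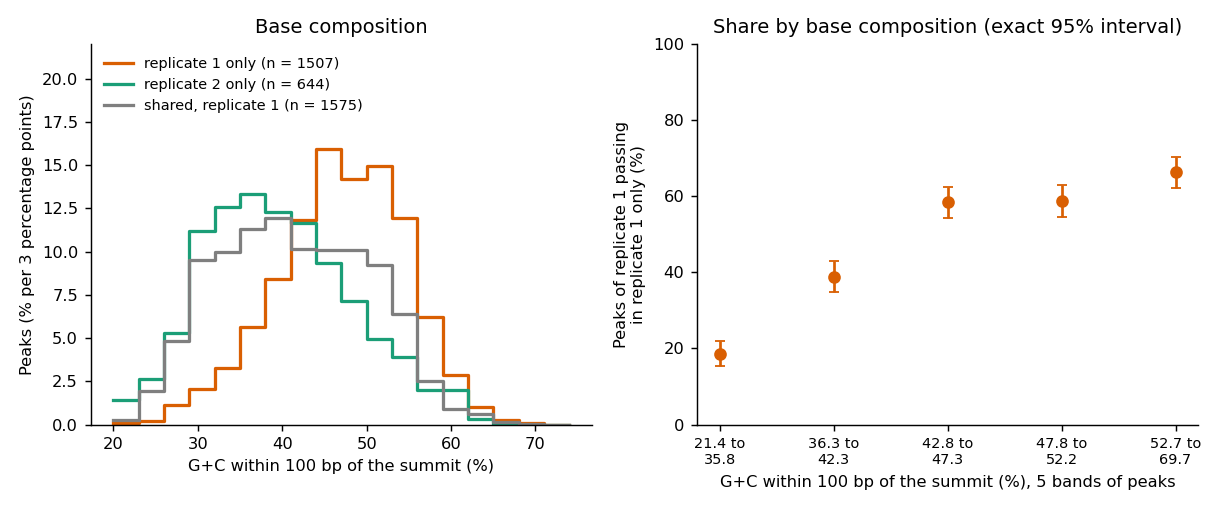
Left, G+C within 100 bp of the summit for 1507 members, 644 replicate 2 only peaks and 1575 shared peaks, as percent of peaks per 3 percentage points. Right, share that passed in replicate 1 only, in 5 bands of G+C, among the 2824 peaks of replicate 1 with a signal of 30 or more and a region in replicate 2 (1350 members), with exact 95% intervals: it runs from 18.6% in the lowest band to 66.3% in the highest.

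Simple repeats were common at the members. GAGAG or its reverse complement CTCTC was found within 100 bp of 640 summits (42.5%, 40.0 to 45), against 27.0% of replicate 2 only peaks and 33.0% (30.6 to 35.3) of shared peaks, with 24.4% in the members' own flanks and 25% of windows at all coding starts. The repeat CACACAC, on either strand, was found at 21.6% (19.6 to 23.8) of members, 8.7% of replicate 2 only and 14.1% (12.4 to 15.9) of shared peaks, with 6.7% at all coding starts. The TATA box letters TATAAA, on either strand, stood at 14.6% (12.9 to 16.5) of members, against 27.5% of replicate 2 only and 27.2% (25 to 29.4) of shared peaks, with 26.9% at all starts. TTAATTA, a homeodomain sequence, was at 3.5% of members, 7.9% of replicate 2 only and 6.9% of shared peaks. The A tract AAAAAAA was at 16.5% of members, 22.7% of replicate 2 only and 21.1% of shared peaks.

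The shares of the repeats and of TATAAA went with base composition. Within the 5 bands of G+C, from low to high, GAGAG stood at 17.0%, 25.3%, 38.8%, 52.2% and 56.6% of members and at 22.6%, 26.4%, 35.6%, 48.5% and 48.8% of shared peaks, with overlapping intervals in all 5. TATAAA stood at 41.5%, 28.4%, 12.2%, 7.9% and 4.4% of members and at 48.7%, 27.2%, 21.3%, 9.2% and 4.1% of shared peaks, with the intervals narrowly apart in the middle band only. CACACAC stood at 10.4%, 14.4%, 25.4%, 23.2% and 25.4% of members and at 3.4%, 8.6%, 17.2%, 26.4% and 30.2% of shared peaks, again with overlapping intervals in all 5. Promoter summits at or downstream of the start made up 23.4%, 43.1%, 62.4%, 60.4% and 46.2% of members and 11.8%, 23.2%, 41.9%, 52.7% and 51.6% of shared peaks, and the intervals were apart in the second and the third band and overlapped in the other 3.

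The other elements searched were at like shares in members and shared peaks, with overlapping intervals, and are given in the order of members, replicate 2 only and shared peaks. These were the DRE letters TATCGATA (3.5%, 3.4% and 3.0%), the BEAF-32 letters CGATA (28.9%, 28.7% and 29.8%), the core promoter element GGTCACAC (2.7%, 3.4% and 2.9%) and the Zelda heptamer CAGGTAG (1.5%, 1.2% and 0.89%). The E-box letters CACGTG were at 3.6%, 2.5% and 2.8%, CAGCTG at 11.4%, 9.8% and 11.9%, and CATATG at 5.5%, 7.0% and 6.7%. GATA letters TGATAAG were at 5.4%, 4.0% and 3.9%, AP-1 letters TGANTCA at 4.0%, 2.8% and 4.1%, and PHO letters GCCATNTT at 3.9%, 4.0% and 5.0%. The cAMP response element TGACGTCA was at 0.66%, 0.31% and 0.25%, the pan (TCF) letters ATCAAAG at 2.3%, 3.3% and 2.2%, and the Ets letters CCGGAAG at 0.60%, 0.78% and 0.83%. Each was searched on both strands, and a match is a run of letters, not a bound site. Among all 2080 6-letter words counted with their reverse complements, those with the largest surplus at members over shared peaks were AGAGCG (23.3% against 14.8%), CACACA (33.0% against 24.6%), GAGAGC (23.0% against 14.6%), ACACAC (29.7% against 21.6%) and CGCTGC (20.8% against 13.5%). The largest deficits were at ATTTTA (16.7% against 33.8%), TTAAAA (18.1% against 34.5%), AAAATA (29.9% against 46.3%), ATTAAA (14.3% against 30.4%) and AAATAT (22% against 37.8%). Of the 50 words with the largest surplus 48 had 3 or more G or C, and of the 50 with the largest deficit 49 had at most 1.

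The members touched the starts of 798 of 13968 protein-coding genes (5.71%), against 3.12% for replicate 2 only peaks and 7.83% for shared peaks. At 722 of the 798 genes no shared peak stood within 500 bp of a start, and at 76 there was also a shared peak. Genes on the developmental lists had a member at a start more often than all genes did, at about the share for shared peaks. Some genes, such as ush, pnt, hth, fz and bcd, stand on several of the lists, and the same member is then counted on each list below. The totals here count each gene once. Of 336 genes on 21 lists of developmental regulators and cell structure genes, 58 (17.3%, 13.4 to 21.7) had a member at a start, against 11 (3.27%, 1.65 to 5.78) with a replicate 2 only peak and 56 (16.7%, 12.8 to 21.1) with a shared peak. Of 400 genes on 8 housekeeping lists, 26 (6.50%, 4.29 to 9.38) had a member, against 31 (7.75%, 5.33 to 10.8) with a replicate 2 only peak and 57 (14.2%, 11.0 to 18.1) with a shared peak. Of 308 chemosensory receptor, cuticle protein and chorion genes, 2 had a member at a start. Replicate 2 only peaks thus stood near their background share on the developmental lists, and members near theirs on the housekeeping lists.

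The lists also differed in the number of starts per gene. Developmental genes had a mean of 2.12 annotated starts, housekeeping genes 1.48 and all genes 1.41. Among genes with 1 start, 15 of 159 developmental genes (9.43%) had a member, against 3 (1.89%) with a replicate 2 only peak and 15 (9.43%) with a shared peak. Over all 10269 genes with 1 start the shares were 3.44% with a member, 2.17% with a replicate 2 only peak and 5.32% with a shared peak. Of 256 housekeeping genes with 1 start, 9 (3.52%) had a member, 13 (5.08%) a replicate 2 only peak and 22 (8.59%) a shared peak.

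Among regulators, the BTB transcription factors, the family rib belongs to, had a member at the start of 8 of 17 genes, against 1 with a replicate 2 only peak and 7 with a shared peak. The member at lola, 162 bp upstream of a start, had a signal of 91.0 in replicate 1 and 36.9 in replicate 2. At chinmo the values were 73.1 and 42.2, at psq, whose product also binds GAGA repeats, 72.2 and 28.8, and at fru 66.5 and 34.2. Counting sites in the gene or up to 1 kb upstream, 12 of the 17 genes held a member, against 3 with a replicate 2 only peak and 9 with a shared peak. Over all genes that wider count gave 8.87% for members, 4.99% for replicate 2 only and 10.7% for shared peaks.

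**Figure D5:**
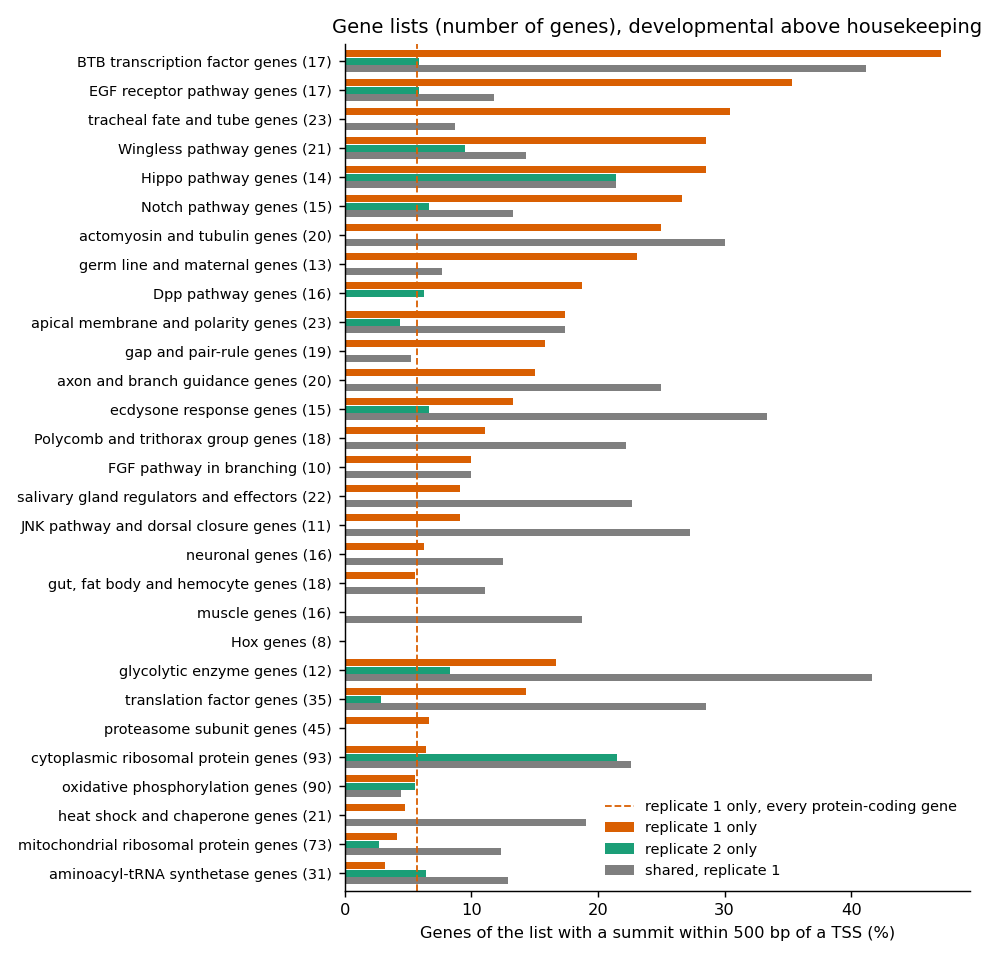
Percent of the genes of each list with a summit within 500 bp of a coding start, for members (orange), replicate 2 only peaks (green) and shared peaks (grey), with the number of genes in parentheses. The dashed line is the member share over all protein-coding genes, 5.71%. The orange bars of the BTB, EGF receptor, tracheal, Wingless, Hippo, Notch, and actomyosin and tubulin lists reach 25% or more. On the cytoplasmic ribosomal protein list the green and grey bars are both longer than the orange. The grey bar is also longer than the orange on several other lists, such as the glycolytic, translation factor, ecdysone, and actomyosin and tubulin lists.

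The tracheal list, genes of tube fate and tube form, had 7 of 23 genes with a member at a start, against 0 with a replicate 2 only peak and 2 with a shared peak. The strongest was 78 bp upstream of a start of ush, a cofactor of GATA proteins, with 105 in replicate 1 and 33.3 in replicate 2. The Ets factor gene pnt had 99.2 and 36.7 at chr3R:23295303-23295652, and hth, a homeodomain cofactor of Hox proteins, had 78.9 and 31.0. At kkv, the chitin synthase of the tracheal lumen, the summit was 91 bp downstream of a start, with 67.0 and 32.5. All 4 were named for a high signal in replicate 1, and each was lower in replicate 2, as most members were. In the list of FGF pathway genes, 1 of 10 genes had a member at a start, the receptor gene htl (61.9 and 16.7). Sites inside the ligand gene ths (60.1 and 32.8) and the inhibitor gene sty (59.3 and 20.9) were members too. On the salivary gland list only klar (82.5 and 17.8) and hth had a member at a start, 2 of 22, against 0 with a replicate 2 only and 5 with a shared peak.

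Signalling lists held members from ligands to targets. In the EGF receptor pathway 6 of 17 genes had a member at a start, against 1 with a replicate 2 only and 2 with a shared peak. They included the ligand gene spi (61.8 and 29.5), S, which carries the ligand through the cell (84.7 and 27.8), and the nuclear effector pnt and the repressor ttk (63.4 and 31.1). In the Wingless list, which also held Hedgehog genes, the counts were 6 of 21, against 2 with a replicate 2 only and 3 with a shared peak. There the receptor gene fz had 87.6 and 20.9, the ligand gene hh 64.1 and 28.6, the transcription factor gene ci 72.8 and 36.6, and the target en 76.6 and 26.9. In the Notch pathway 4 of 15 genes had a member at a start, against 1 with a replicate 2 only and 2 with a shared peak. These were kuz, the protease that cleaves the receptor (106 and 46.3), the inhibitor numb (77.2 and 34.7), the ubiquitin ligase gene neur (64.0 and 28.2) and the coactivator gene mam (54.4 and 17.1).

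In the Dpp pathway, 3 of 16 genes had a member at a start, against 1 with a replicate 2 only and 0 with a shared peak. These were the type II receptor gene wit (83.7 and 25), tkv, and shn, a zinc finger cofactor (79.2 and 44.0). An intron of the inhibitor gene Dad held a stronger member (105 and 33.9). In the Hippo pathway the counts were 4 of 14, against 3 with a replicate 2 only and 3 with a shared peak. The kinase gene hpo (51.9 and 40.9), mats (54.6 and 27.9), fj (63.8 and 17.3) and the cadherin gene ds (59.4, with no region in replicate 2) were the 4. Of the JNK and dorsal closure list 1 of 11 genes had a member at a start, against 0 with a replicate 2 only and 3 with a shared peak. It was ush, named above for the tracheal list, and introns of puc (66.0 and 31.3) and msn (65.5 and 29.2) held others.

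Genes of cell shape were also touched. On the actomyosin and tubulin list 5 of 20 genes had a member at a start, against 0 with a replicate 2 only and 6 with a shared peak. Act5C, a cytoplasmic actin, had 99 and 30.1, the myosin light chain gene sqh 89.3 and 67.4, the filamin gene cher 73.3 and 11.5, and the spectraplakin gene shot 57.3 and 23.2. The site at sqh kept the most of its signal of these and the site at cher the least. Of the apical membrane and polarity list 4 of 23 genes had a member at a start, against 1 with a replicate 2 only and 4 with a shared peak: Moe (68.3 and 43.6), the septate junction gene Lac (66.4 and 15.7), sdt (56.5 and 32.7) and dlg1 (51.4 and 31.6). Of the guidance list 3 of 20 did, against 0 with a replicate 2 only and 5 with a shared peak, with robo2 at 99.5 and 40.6.

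On lists of patterning, germ line, chromatin and late tissue genes the share with a member at a start ran from 0% to 23.1%, beside 5.71% over all genes. No Hox gene of 8 had a member at a start, while an intron of abd-A held one (75.5 and 20.8). Of 19 gap and pair-rule genes 3 did, against 0 with a replicate 2 only and 1 with a shared peak, namely ems (65.7 and 38.9), bcd (54.8 and 42.2) and oc (49.1 and 27.6). Of 13 germ line and maternal genes 3 did, against 0 with a replicate 2 only and 1 with a shared peak, with ovo at 80.7 and 37.4. Polycomb and trithorax genes gave 2 of 18, against 0 with a replicate 2 only and 4 with a shared peak, and included Trl itself, with 48.4 and 24.5 at 86 bp upstream of a start. Muscle genes gave 0 of 16, against 0 with a replicate 2 only and 3 with a shared peak. Neuronal genes gave 1 of 16 (6.25%), against 0 with a replicate 2 only and 2 with a shared peak. Gut, fat body and hemocyte genes gave 1 of 18 (5.56%), the gene ush again, against 0 with a replicate 2 only and 2 with a shared peak. The neuronal and the gut, fat body and hemocyte shares were thus near that over all genes. At elav, the neuronal gene, the values were 60.2 and 39.8.

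On 6 of the 8 housekeeping lists the member share lay between 3.23% and 6.67%, beside 5.71% over all genes, and no difference between lists was tested. Of 93 cytoplasmic ribosomal protein genes 6 had a member at a start, against 20 with a replicate 2 only peak and 21 with a shared peak. The strongest of the 6 were at RpS29 (75.9 and 34.1), RpL11 (70.3 and 43.0), RpS6 (63.3 and 50.7) and RpL36 (62.4 and 38.7). Translation factor genes gave 5 of 35, against 1 with a replicate 2 only and 10 with a shared peak, led by eIF3f1 (96.2 and 34.8). Proteasome genes gave 3 of 45, against 0 with a replicate 2 only and 0 with a shared peak: Prosbeta5 (80.5 and 24.5), Rpn6 (75.7, with no region in replicate 2) and Rpn3 (62.7 and 53.2). Oxidative phosphorylation genes gave 5 of 90, against 5 with a replicate 2 only and 4 with a shared peak, glycolytic genes 2 of 12, against 1 with a replicate 2 only and 5 with a shared peak, and chaperone genes 1 of 21, against 0 with a replicate 2 only and 4 with a shared peak, the last at Hsc70-4 (86.4 and 57.0). Mitochondrial ribosomal protein genes gave 3 of 73, against 2 with a replicate 2 only and 9 with a shared peak, and aminoacyl-tRNA synthetase genes 1 of 31, against 2 with a replicate 2 only and 4 with a shared peak. Some sites lay between divergent genes, as at SdhC, where the summit was 1 bp upstream of Tctp, and 119 of the 775 promoter members were within 500 bp of starts of more than 1 gene.

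Some long genes gathered many members. Eip75B, a nuclear receptor gene induced by ecdysone, held 17 in 16 separate stretches over its 113744 bp on chr3L, with 12 shared peaks and 2 replicate 2 only peaks. Their signal had a median of 60.2 in replicate 1 and 24.6 in replicate 2, and 3 of the 17 lay at a start. EcR, the ecdysone receptor gene, held 9 (medians 59.8 and 32.4) beside 0 replicate 2 only and 8 shared peaks. Tlk held 8 (74.1 and 38.1), shn 8 (69.1 and 21.0), fru 7 (66.5 and 25.9) and CG46467 6 (70.5 and 37.1). At shn the mirror set was also present, with 4 replicate 2 only peaks and 3 shared peaks, and a member in its 5′ UTR (71.8 and 23.2) lay 5 bp from a replicate 2 peak. On the whole ecdysone list 10 of 15 genes held a member in the gene or up to 1 kb upstream, against 3 with a replicate 2 only and 8 with a shared peak, while 2 had one at a start, against 1 with a replicate 2 only and 5 with a shared peak.

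The members were spread over the genome. Arms 3L and 2R held 23.5% and 23.4% of them, 3R 21.7%, 2L 17.2%, X 14.1% and chromosome 4 0.20%, while shared peaks were at 23.0%, 19.6%, 21.0%, 19.3%, 16.6% and 0.44%. On 2R the intervals, 21.2 to 25.6 for members and 17.7 to 21.7 for shared peaks, overlapped. There were 411 members within 1 kb of another, in 193 groups, the largest of 4 at AcCoAS on 3L. Within 20 kb of rib itself, the tagged locus, lay 6 members and 21 shared peaks. Of the members, 52 stood under 200 bp and 262 under 1000 bp from a peak of replicate 2 without touching it, the closest being at shn, Msr-110 and Gpdh1. By width 99.2% were exactly 350 bp, the commonest width in replicate 1, as were 79.4% of shared peaks, while 99.4% of replicate 2 only peaks were 320 bp. In the authors' whole-series list of 4606 peaks, 84.3% (82.4 to 86.1) of members overlapped a peak, against 75.6% of replicate 2 only and 98.8% of shared peaks, and in the conservative list of 3959 peaks 61.0%, 61.3% and 97.7% did.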

How the data were processed

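Peak lists of 2 replicates were used, and per the file headers and labels all are on dm6. The signal in the lists the authors deposited is their measure of peak height, with scaling not stated. The deposited score is the global IDR rescaled to whole numbers up to 1000, and the deposited lists also hold that IDR as −log10, computed by the authors. The ranked lists give 2 further signals, those the IDR compared. Aligner and peak caller, not given in the sources used here, were not assumed. Depth is unknown for lack of read counts.

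Positions were moved to count from 1. A peak was called shared where 1 bp or more was common to both lists, and where several regions of a ranked list overlapped a peak the strongest was taken, with ranks by signal. Starts came from Ensembl release 115 (BDGP6.54), and a summit in several features was given the first of 5′ UTR, coding exon, 3′ UTR and intron. The feature was read over all protein-coding genes, so a site called intronic may lie in an intron of a gene other than the one named. Base composition and motifs were read within 100 bp of the summit on the Release 6 assembly. Python 3.11.15, numpy 2.4.6, scipy 1.17.1, pandas 2.3.3 and matplotlib 3.10.9 were used. The overlap, distance and motif steps were tested on simulated data. Named were the 12 strongest members, up to 4 genes per list by signal at starts and 3 inside developmental genes, the 6 genes with most members (ties in alphabetical order), and members at the ends of the range, near the threshold or nearest to a replicate 2 peak. Of the listed genes 16 symbols had no match and were not counted. No p-values are given, since members were selected on measured values and peaks are not replicates. The members and lists were chosen with earlier results of these data known. Alternatives covered the overlap rule, a stricter set, the start window and set of starts, the motif window, the whole-series list and, chosen after seeing the data, nested peaks.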

Additional observations from a re-analysis of the deposited data

How the results depend on the processing

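The number of members moved little with the rule for shared peaks, from 1357 when peaks within 500 bp counted as shared to 1605 when 0.5 of the shorter peak or more had to overlap, and was 1377 without members nested in a stronger peak. The stricter set of 754, by construction the members with the higher score or signal, had 56.9% of summits within 500 bp of a start. The promoter share was 42.2% within 200 bp, 62.0% within 1000 bp and 55.0% with the starts of all annotated genes. The share with a region in replicate 2's ranked list stayed within its interval under each alternative run for it. The share of promoter summits at or downstream of the start did so too, at 50.6% to 52.6%. The count of genes with a member at a start stayed within 1.5 times. Mean G+C ran from 45.9% to 47.7%. Its criterion was the SD over single windows, 7.4%, which is wider than the gap between the means of members (47.0%) and shared peaks (41.6%). Staying within that SD was thus nearly assured, and only the range can be read. Motif shares changed with the window, GAGAG to 25.6% within 50 bp and 55.8% over whole peaks, and with members of the whole-series list alone all 18 stayed within their interval. No replicate could be left out, because the set is defined by both. No paired analysis was possible because there is 1 group. Without read counts, what depth limits could not be measured.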
